A study of Rattus norvegicus with 12 samples.

Results

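Expression of 10 genes that mark the action of glucocorticoids or bind metals was described in rat lung and in lung endothelial cells (ECs). They were the glucocorticoid receptor gene Nr3c1, 6 genes known as its targets (Zbtb16, Fkbp5, Tsc22d3, Sgk1, Errfi1 and Dusp1) and the metallothionein genes Mt1, Mt2A and Mt3. They were taken by symbol from the 19230 rows of the deposited table. All 10 were found, each in a row of its own.

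Glucocorticoids bind the receptor in the cytoplasm, where the chaperone Hsp90 and its co-chaperones hold it, and the bound receptor moves to the nucleus and acts on genes at glucocorticoid response elements. Circulating glucocorticoid follows the time of day and stress, and its targets follow it in most tissues, lung included. Metallothioneins are small cysteine-rich proteins that bind zinc and copper. Their genes respond to zinc through the transcription factor MTF1, which binds metal response elements (MREs), and to glucocorticoids.

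RNA was sequenced from Sprague-Dawley rats in 4 groups of 3 libraries. The first was total lung labelled Ahr-KO, with a defect of the aryl hydrocarbon receptor (AhR) gene, at day 4 of SuHx, which joins the VEGF receptor inhibitor Sugen to hypoxia and serves as a model of pulmonary arterial hypertension. The second was total lung of wild-type (WT) rats at day 4 of SuHx, and the third was WT ECs in normoxia. The fourth was WT total lung in normoxia at day 0, which served as control. The ECs were labelled day 4, while their column names give 0. The sources used here give neither age, sex and hour of sampling nor how the ECs were obtained. No Ahr-KO lung in normoxia and no lung given Sugen or hypoxia alone was among the groups, so the effects of the genotype in normoxia, of the drug and of hypoxia cannot be told apart here. Libraries are named below by group and by the number, 0 to 2, that their column carries.

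Values are signals, each an estimated number of reads that was scaled by a factor common to its library, so that 1 read was worth 0.745 to 1.25. The 12 libraries held 20.04 to 28.6 M reads. Fold changes are differences of log2(signal + 1) with their standard error, and p-values come from limma and are adjusted over all tested rows. Ahr itself had a signal of 1800.0 to 2523 in the lungs labelled Ahr-KO and 1739.6 to 3073 in WT SuHx lung (log2 fold change 0.03 ± 0.26, adjusted p = 0.966), so its level does not check the genotype label, and the deleted part is not given. Of 20 endothelial markers, 18 were higher in ECs than in normoxia lung and none was at 0, with a summed signal of 417837 to 502110 in ECs and 159065 to 171823 in normoxia lung. Markers of other cells were still read in ECs, as their alveolar sum was 130909 to 279733 in ECs against 580309 to 845536 in normoxia lung, and their monocyte and macrophage sum was 60895 to 198229 against 328101 to 480728. Part of the other immune markers were called higher in ECs than in normoxia lung, as were 26.1% of all rows. Of 12 neutrophil markers 8 were higher (sums of 8356 to 10564 in ECs and 2480.2 to 5404 in normoxia lung). Of 14 tested T, NK and B cell markers 8 were higher and 3 lower (10244 to 16579 in ECs and 3627 to 7374 in normoxia lung). Of 8 mast cell markers 3 were higher and 5 not called (10756 to 14749 in ECs and 5791 to 6364 in normoxia lung). The part of these markers in the EC values of the 10 genes was not tested. Normoxia lung 2 and Ahr-KO lung 2 stood apart by cardiac markers, with sums of 13509.6 and 30279.9 against 902 to 7644 in the other lungs of their groups. Normoxia lung 1 stood apart by glucocorticoid target genes, as described below.

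In WT SuHx lung, Sgk1, Mt1 and Mt2A rose against normoxia lung and Zbtb16 and Errfi1 fell. That was 5 of 10 genes called at an adjusted p under 0.05, where 13.5% of the 15234 tested rows were called (7.08% higher and 6.39% lower). The 6 genes whose libraries did not overlap between these groups were the same 5 and Nr3c1, against 36.7% of all rows. In Ahr-KO SuHx lung against normoxia lung, Sgk1, Mt1 and Mt2A rose and no gene fell, 3 of 10 against 9.75% of all rows called (5.95% higher and 3.8% lower). Libraries of 4 of the 10 genes did not overlap there, against 33.0% of all rows. Between Ahr-KO and WT SuHx lung none of the 10 was called, where 0.499% of all rows were (0.197% higher and 0.302% lower), and 1 (Errfi1) had an unadjusted p under 0.05. Of the 9 genes tested in ECs against normoxia lung, 5 (Sgk1, Errfi1, Dusp1, Mt1 and Mt2A) were higher and none was lower. That share is close to the 56.2% of all 15186 rows called there, 26.1% higher and 30.1% lower. The same 5 genes were those without overlap, against 65.5% of all rows. The median log2 fold change of the 10 genes was -0.32 in WT SuHx against normoxia lung (-0.04 over all rows), 0.14 in Ahr-KO against WT SuHx lung (0.02), and -0.13 in Ahr-KO SuHx against normoxia lung (-0.03). In ECs against normoxia lung it was 1.97 over 9 genes (-0.05 over all rows). The comparisons with normoxia lung share its 3 libraries.

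**Figure D1:**
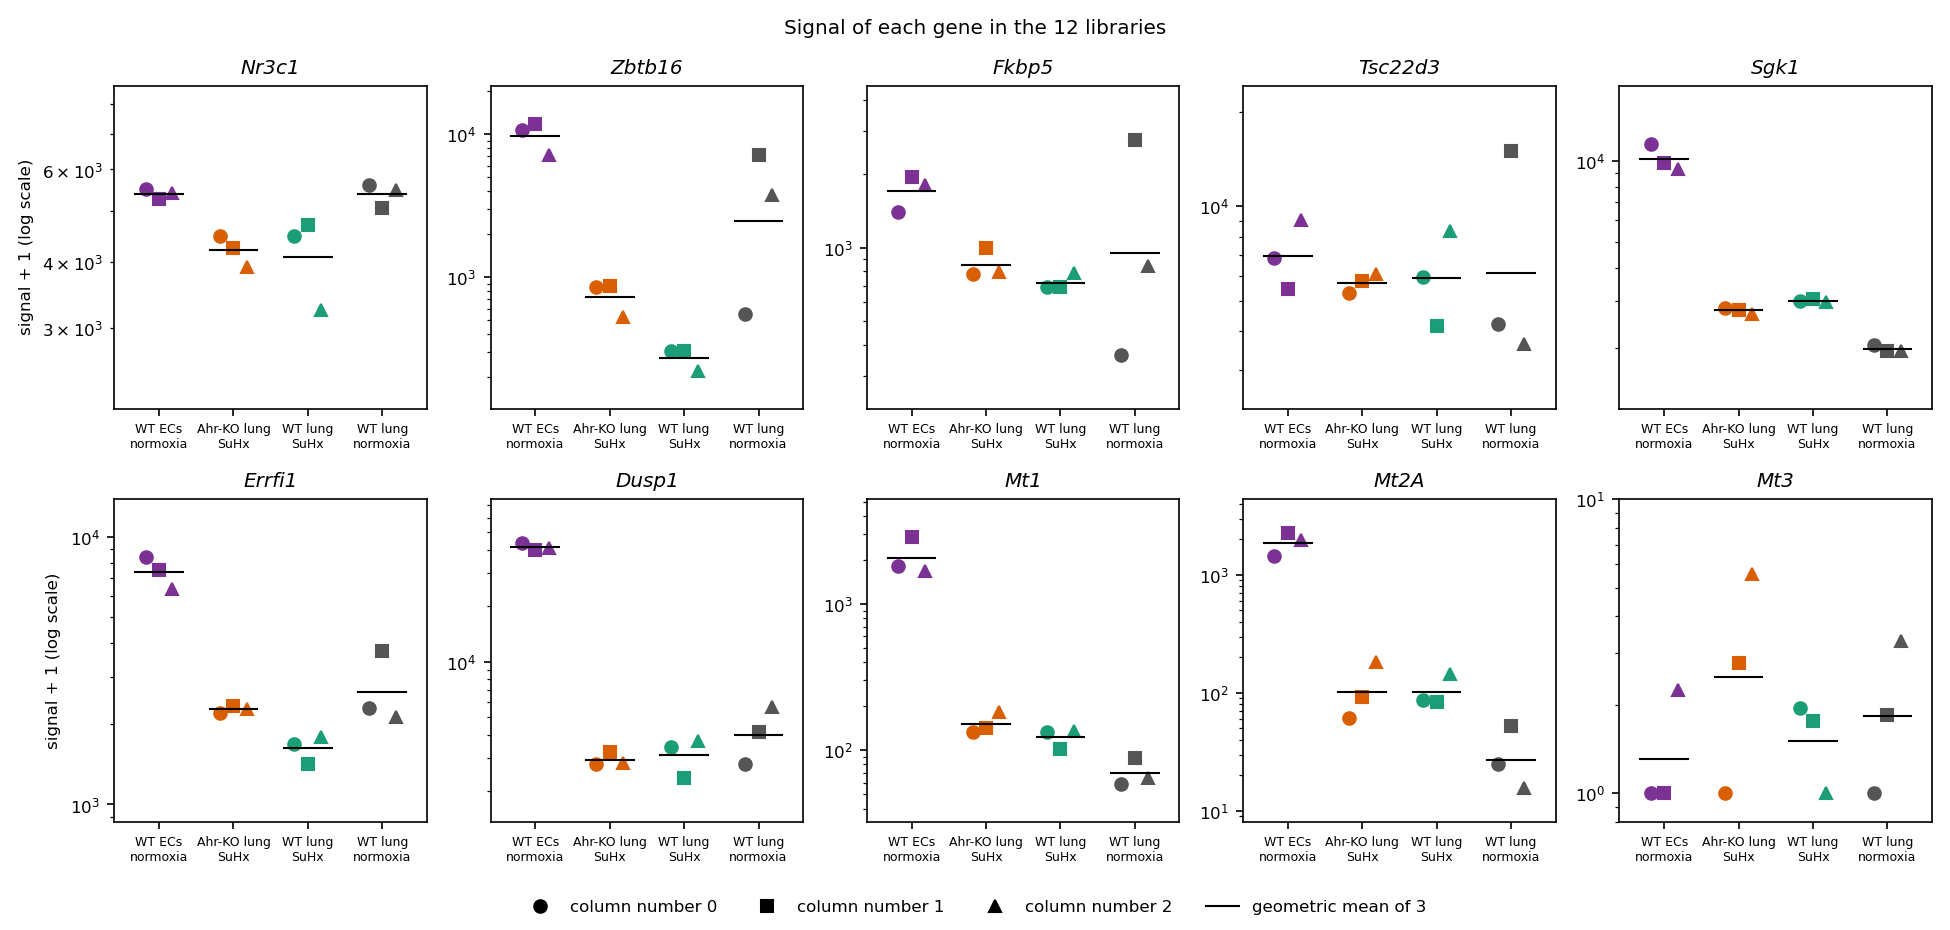
Signal plus 1 (log axis) of the 10 genes in each library, with ECs, Ahr-KO SuHx lung, WT SuHx lung and normoxia lung from left to right; points are libraries, their shape is the column number, and the line is the geometric mean of 3. Sgk1 separates all SuHx lungs (2694 to 3047) from normoxia lungs (1955 to 2058), while Zbtb16, Fkbp5 and Tsc22d3 spread widely among the normoxia lungs.

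**Figure D2:**
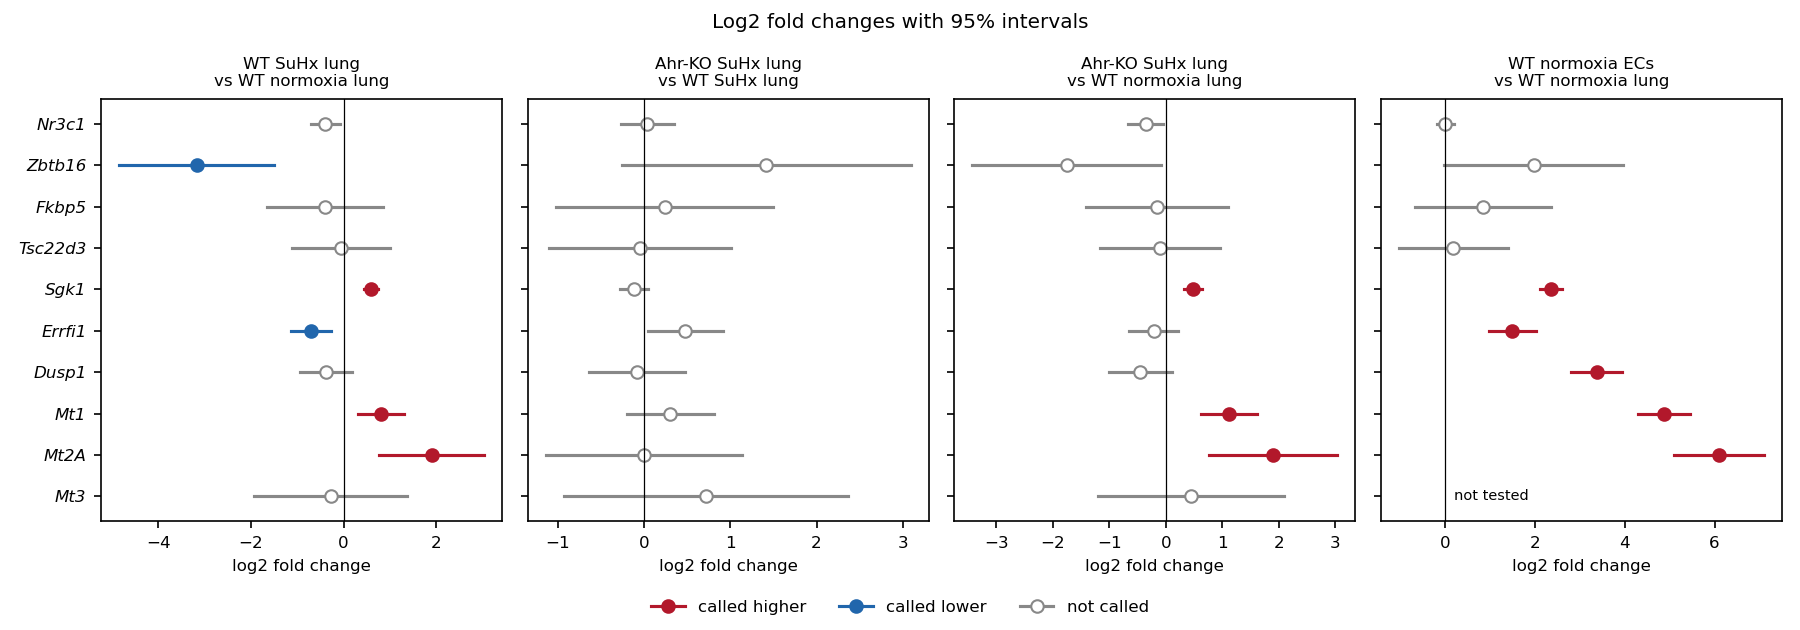
Log2 fold change of each gene (x axis) with its 95% interval in 4 comparisons, each panel on its own scale; filled points are called at an adjusted p under 0.05. Sgk1, Mt1 and Mt2A are called higher in both SuHx groups and in ECs, and none is called between Ahr-KO and WT SuHx lung.

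The receptor gene Nr3c1 had a signal of 4479.8, 4252 and 3922 in Ahr-KO SuHx lung, 4482, 4715 and 3254 in WT SuHx lung and 5604, 5070.4 and 5479 in normoxia lung. All 6 SuHx lungs thus lay below all 3 normoxia lungs. The log2 fold change against normoxia lung was -0.35 ± 0.14 in Ahr-KO SuHx lung (adjusted p = 0.143) and -0.39 ± 0.14 in WT SuHx lung (adjusted p = 0.0860), so neither was called. Without WT SuHx lung 2, the lowest of its group, the same fit called Nr3c1 lower in Ahr-KO SuHx lung at the same log2 fold change (adjusted p = 0.0320). ECs held 5504, 5273 and 5422, within the range of normoxia lung, with a log2 fold change of 0.01 ± 0.08 (adjusted p = 0.963, interval -0.18 to 0.19). Under quantile normalization that value was -0.40 with an adjusted p of 0.0105, so its direction in ECs depends on the scaling. Of the 10 genes it had the smallest standard deviation (SD) relative to its mean in ECs, 2.16%.

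Zbtb16 encodes the zinc finger transcription factor PLZF, which glucocorticoids strongly induce in many cells. Its signal was 848, 874 and 529 in Ahr-KO SuHx lung, 304, 305 and 220.4 in WT SuHx lung and 554, 7138 and 3778 in normoxia lung. Every Ahr-KO SuHx lung lay above every WT SuHx lung, and normoxia lung 0 lay far below the other normoxia lungs and among the Ahr-KO SuHx values. Zbtb16 was 8.99-fold lower in WT SuHx than in normoxia lung (log2 fold change -3.17 ± 0.75, adjusted p = 0.0243). Endothelial markers moved the same way, with 7 of 20 lower and 2 higher in WT SuHx lung (median log2 fold change -0.32) and 5 lower and 1 higher in Ahr-KO SuHx lung (median -0.29). Their sums were 112711 to 143589 in Ahr-KO SuHx, 125075 to 136856 in WT SuHx and 159065 to 171823 in normoxia lung. None was at 0. Alveolar markers fell too, with 3 of 15 lower in WT SuHx (median -0.38), 2 lower in Ahr-KO SuHx lung (median -0.47) and none higher. Monocyte and macrophage sums were 202773 to 256803 in WT SuHx, 214025 to 322837 in Ahr-KO SuHx and 328101 to 480728 in normoxia lung. Of their 12 tested markers, though, 3 were higher and 1 lower in each SuHx group. Of all rows, 6.39% were called lower and 7.08% higher in WT SuHx, and 3.8% lower and 5.95% higher in Ahr-KO SuHx against normoxia lung. The part of these cell markers in the values of Zbtb16 and Errfi1 was not tested. In whole lung, fewer cells of a type and less RNA per cell cannot be told apart. The Zbtb16 call was lost in 7 of 18 alternative settings, where the adjusted p reached 0.0805. The log2 fold change was -2.40 without normoxia lung 1, the highest (adjusted p = 0.0620), and -4.24 without normoxia lung 0, the lowest (adjusted p = 0.000511). Against WT SuHx lung, Ahr-KO SuHx lung was higher by 1.42 ± 0.75 on the log2 scale, which did not pass (adjusted p = 0.430, interval -0.25 to 3.09). Against normoxia lung the Ahr-KO lungs gave -1.75 ± 0.75 (adjusted p = 0.175), -0.98 without normoxia lung 1 (adjusted p = 0.444) and -2.83 without normoxia lung 0 (adjusted p = 0.00132). In ECs Zbtb16 was at 10772, 11869.6 and 7103, so that EC 2 lay just below the highest normoxia lung. The log2 fold change was 1.97 ± 0.85 (adjusted p = 0.0837). It was called at the same fold with all 12 libraries in 1 fit (adjusted p = 0.0268) and at 2.74 without normoxia lung 1 (adjusted p = 0.0222), and it was 0.90 without normoxia lung 0 (adjusted p = 0.0673).

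Fkbp5 encodes FKBP51, a co-chaperone of Hsp90 that lowers the affinity of the receptor for its hormone and is itself induced by it. It had 777, 994 and 798 in Ahr-KO SuHx lung, 689, 688 and 786 in WT SuHx lung and 364, 2757 and 844 in normoxia lung. Both SuHx groups lay inside the range of the normoxia lungs, which was set by normoxia lungs 0 and 1. No comparison among the lung groups was called, with log2 fold changes of -0.15 ± 0.56 (adjusted p = 0.894) for Ahr-KO SuHx and -0.40 ± 0.56 (adjusted p = 0.657) for WT SuHx against normoxia lung, and 0.24 ± 0.56 (adjusted p = 0.867) between them. ECs held 1397, 1946 and 1804, between normoxia lungs 1 and 2. Their log2 fold change was 0.84 ± 0.64 (adjusted p = 0.299) over all normoxia lungs, and 1.61 without normoxia lung 1 (adjusted p = 0.00954).

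Tsc22d3 encodes GILZ, a leucine zipper protein that carries part of the anti-inflammatory action of glucocorticoids. Its signal was 5285, 5795 and 6083 in Ahr-KO SuHx lung, 5936, 4138 and 8362 in WT SuHx lung and 4216, 15043 and 3644 in normoxia lung. The groups overlapped, and normoxia lung 1 was again the highest of all. The log2 fold change was -0.10 ± 0.47 for Ahr-KO SuHx (adjusted p = 0.917) and -0.06 ± 0.47 for WT SuHx against normoxia lung (adjusted p = 0.944). Without normoxia lung 1 both turned, to 0.54 and 0.59, and remained uncalled (adjusted p = 0.262 and 0.183). ECs held 6856, 5446 and 9063, with a log2 fold change of 0.18 ± 0.52 (adjusted p = 0.783), which was 0.83 without normoxia lung 1 (adjusted p = 0.0189).

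The spread of these genes among the 3 normoxia lungs was itself large. The SD of the log2 signal in normoxia lung was 1.92 for Zbtb16, 1.47 for Fkbp5 and 1.13 for Tsc22d3, above that of 99.2%, 98.4% and 96.8% of tested rows. Sgk1, with an SD of 0.04, lay above only 5.59% of rows. Normoxia lung 1 was the highest of its group for 6 of the 10 genes (Zbtb16, Fkbp5, Tsc22d3, Errfi1, Mt1 and Mt2A), against 32.8% of the tested rows. It exceeded the mean of normoxia lungs 0 and 2 by 4.57-fold for Fkbp5, 3.83-fold for Tsc22d3, 3.29-fold for Zbtb16 and 2.66-fold for Mt2A, but gave ratios of 0.977 for Sgk1, 0.979 for Dusp1 and 0.915 for Nr3c1. Of 24 other glucocorticoid-induced genes, 16 were highest in normoxia lung 1, with a median log2 excess of 0.81 over the other normoxia lungs, against -0.01 for all rows. Per1, a clock gene that glucocorticoids induce, stood at 48.7, 310.1 and 19.9 in normoxia lungs 0, 1 and 2, and Ddit4, an inhibitor of mTOR signalling, at 404, 2286 and 591; both were chosen after their values were seen. Immediate early genes did not share this order, as only 3 of 15 were highest in normoxia lung 1 (median log2 excess -0.35). The same library had the highest alveolar sum (845536 against 630567 and 580309) and the highest monocyte and macrophage sum (480728 against 329097 and 328101) of its group. Its neutrophil sum (2480.2 against 4474 and 5404) and its T, NK and B cell sum (3627 against 5029 and 7374) were the lowest of the group. The part of these cell markers in this spread was not tested. Among the WT SuHx lungs, number 2 was the highest for 16 of the 24 genes, with a median log2 excess of 0.24, where 38.2% of all rows were highest in it.

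**Figure D3:**
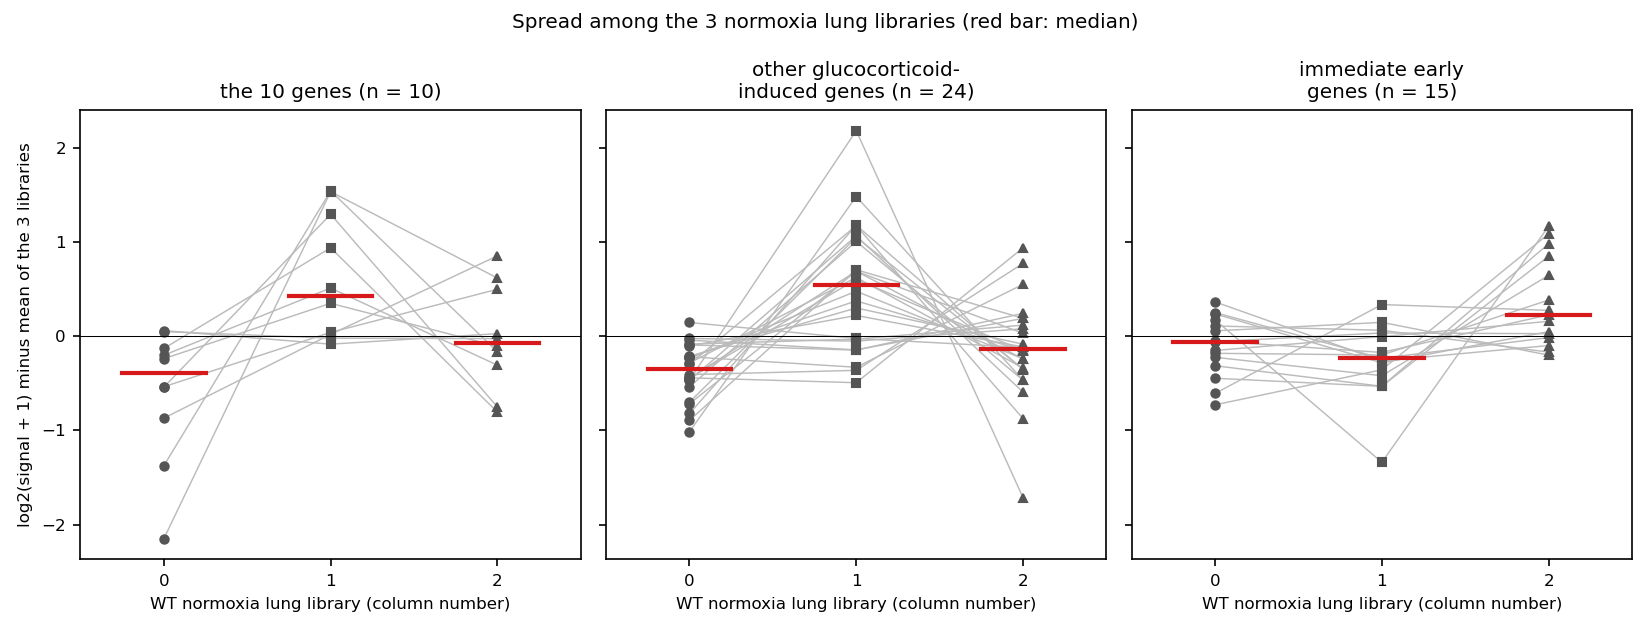
Log2(signal + 1) of each gene minus its mean over the 3 normoxia lungs (y axis) in normoxia lungs 0, 1 and 2 (x axis), for the 10 genes, 24 other glucocorticoid-induced genes and 15 immediate early genes; lines join the values of 1 gene and red bars are medians. Normoxia lung 1 lies highest for 6 of 10 and 16 of 24 genes in the first panels, but for 3 of 15 immediate early genes.

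The rows whose lung profiles were most like those of Zbtb16 and Fkbp5 were also highest in normoxia lung 1, which choosing them by likeness favours. Likeness was the root mean square difference of centred log2 signals over the 9 lung libraries, among rows with a mean of at least 10. For Fkbp5, whose own profile had a root mean square of 0.72, the closest rows were Klf15, a zinc finger gene also induced by glucocorticoids (0.26), Atp1b1, a subunit of the sodium pump (0.33), and Fam46b (0.35). Klf15 was at 717, 778 and 723 in Ahr-KO SuHx lung, 776, 622 and 746 in WT SuHx lung and 495, 1979.9 and 683 in normoxia lung. In ECs Klf15 was at 171, 135.0 and 156, below every lung library. For Zbtb16 the closest were Slc24a2 (0.78), Duox1 (0.80) and Unc5d (0.83), and for Mt2A Adamtsl2 (0.39), Steap1 (0.45) and Fxyd4 (0.46). These are ranks within the same 9 libraries and no test was made.

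**Figure D4:**
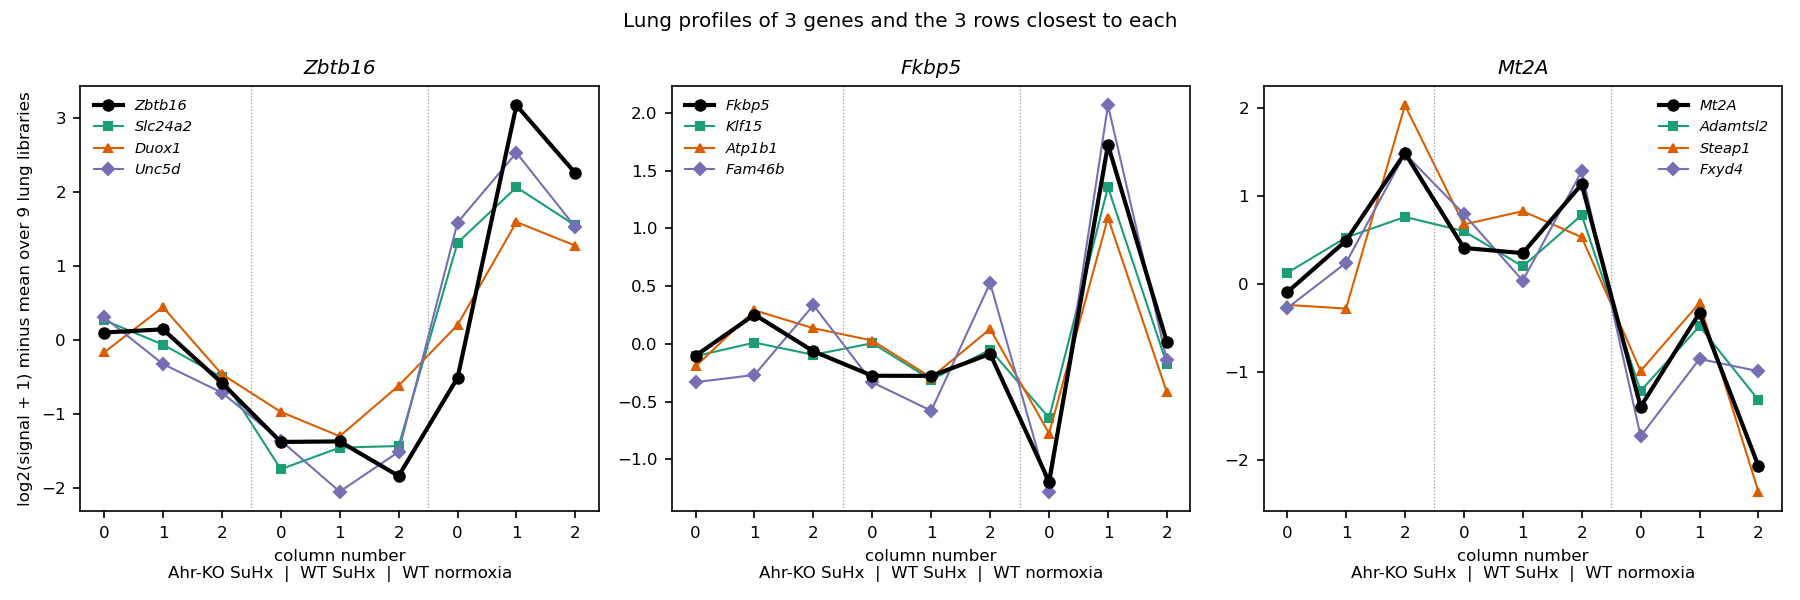
Centred log2(signal + 1) of Zbtb16, Fkbp5 and Mt2A (black) and the 3 rows closest to each (colours) over the Ahr-KO SuHx, WT SuHx and normoxia lungs, with the column number on the x axis. Fkbp5 and its neighbours peak in normoxia lung 1, and Mt2A, Adamtsl2 and Fxyd4 lie lower in every normoxia lung than in any SuHx lung, which Steap1 does not.

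Sgk1 encodes the serum- and glucocorticoid-regulated kinase, which promotes sodium uptake through the epithelial sodium channel. It had 2839.7, 2781 and 2694 in Ahr-KO SuHx lung, 3001, 3047 and 2965 in WT SuHx lung and 2058, 1961 and 1955 in normoxia lung. The 3 lung groups did not overlap and replicates lay within a few percent of each other, with an SD of 2.65% of the mean in Ahr-KO SuHx, 1.37% in WT SuHx and 2.91% in normoxia lung. Sgk1 rose 1.39-fold in Ahr-KO SuHx (log2 fold change 0.48 ± 0.07, adjusted p = 0.00340) and 1.51-fold in WT SuHx lung (0.59 ± 0.07, adjusted p = 0.00114). Both calls held in 18 of 18 alternative settings. The Ahr-KO lungs were lower than the WT SuHx lungs by a log2 difference of -0.12 ± 0.07, which was not called (adjusted p = 0.483, interval -0.28 to 0.04). ECs held 11603, 9826 and 9303 and were 5.12-fold higher than normoxia lung (log2 fold change 2.36 ± 0.10, adjusted p = 1.2e-05). Of all rows, 13.5% were called in WT SuHx and 9.75% in Ahr-KO SuHx against normoxia lung, and 0.499% between the SuHx groups. None of 9 genes of sodium transport and other SGK1 targets was called in these comparisons, which with 9 genes is near those shares. Their medians were -0.11 in WT SuHx and -0.08 in Ahr-KO SuHx against normoxia lung. In ECs, 3 of them were higher and 2 lower (median log2 fold change -0.34), a share near the 56.2% of all rows called there. The channel subunits Scnn1g (387 ± 91.6 in ECs and 2306 ± 974 in normoxia lung, SD, n = 3 each) and Scnn1b were lower. Ndrg1, a substrate of the kinase, was 2.12-fold higher.

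Errfi1 encodes MIG6, which glucocorticoids and growth factors induce and which inhibits the EGF receptor. Its signal was 2199.6, 2323 and 2274 in Ahr-KO SuHx lung, 1688, 1412 and 1792 in WT SuHx lung and 2289, 3753 and 2127 in normoxia lung. The WT SuHx lungs lay below all others, and the Ahr-KO SuHx lungs lay among the normoxia lungs. Errfi1 fell 1.62-fold in WT SuHx against normoxia lung (log2 fold change -0.70 ± 0.19, adjusted p = 0.0428), a call lost in 10 of 18 alternative settings with adjusted p up to 0.0977. In Ahr-KO against WT SuHx lung it was higher by 0.48 ± 0.19, which was not called (adjusted p = 0.325, interval 0.05 to 0.91). The 3 genes without overlap in that comparison were Zbtb16 and Errfi1, higher in Ahr-KO, and Sgk1, lower in Ahr-KO, against 21.9% of all rows. Against normoxia lung the Ahr-KO value was -0.22 ± 0.19 (adjusted p = 0.512), and 0.04 without normoxia lung 1 (adjusted p = 0.894). ECs held 8422, 7536 and 6392, a 2.81-fold rise (log2 fold change 1.49 ± 0.22, adjusted p = 0.00118). Of 11 EGF receptor family and ligand genes, none was called in WT SuHx against normoxia lung (median log2 fold change -0.45), where 13.5% of all rows were. In Ahr-KO SuHx against normoxia lung 1 was called (median of the 11 -0.39), a share near the 9.75% of all rows. It was the receptor gene Erbb4 (log2 fold change -1.81 ± 0.48, adjusted p = 0.0460). In ECs 3 of the 11 were higher, the ligands Hbegf (8.42-fold) and Ereg (20.7-fold) among them. Another 6 were lower, Egfr itself (3.09-fold) and the ligand gene Nrg1 (4.39-fold) among them, with a median of -0.92. Of all rows 26.1% were higher and 30.1% lower there.

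Dusp1 encodes a phosphatase that switches off MAP kinases and that both glucocorticoids and stress signals induce. It had 2785, 3239 and 2827 in Ahr-KO SuHx lung, 3438, 2351 and 3727 in WT SuHx lung and 2772, 4136 and 5679.6 in normoxia lung. All 3 groups overlapped. The log2 fold change was -0.45 ± 0.25 for Ahr-KO SuHx (adjusted p = 0.286) and -0.37 ± 0.25 for WT SuHx against normoxia lung (adjusted p = 0.330). ECs stood clear of every lung library with 43564.5, 40373.5 and 41229, 10.4-fold above normoxia lung (log2 fold change 3.37 ± 0.24, adjusted p = 6.25e-05). Beside this, all 15 immediate early genes were higher in ECs, with a median log2 fold change of 4.39, where 26.1% of all rows were higher. Fosb averaged 72834 ± 26831 in ECs and 112 ± 20.2 in normoxia lung, and Jun 105933 ± 16236 in ECs and 5347 ± 189.0 in normoxia lung (SD, n = 3 each). In WT SuHx against normoxia lung 2 of the 15 were higher and none lower (median -0.12), where 13.5% of all rows were called. In Ahr-KO SuHx against normoxia lung 1 was higher and none lower (median -0.06), where 9.75% of all rows were called. Nr4a3, an orphan nuclear receptor, rose 3.15-fold in Ahr-KO and 2.38-fold in WT SuHx lung, and Ier3 rose 1.67-fold in WT SuHx lung. The part of the immediate early genes in the EC values of Dusp1, Errfi1 and Sgk1 was not tested. Of 12 other dual-specificity phosphatase genes, 6 were higher and 3 lower in ECs (median log2 fold change 0.60), led by Dusp2 (16.0-fold), Dusp5 (11.7-fold), Dusp8 (7.76-fold) and Dusp10 (3.97-fold), all higher. In WT SuHx against normoxia lung Dusp8 and Dusp2 rose and Dusp4 fell (median of the 12 -0.11), and Dusp14 was 2.03-fold higher in Ahr-KO than in WT SuHx lung (log2 fold change 1.02 ± 0.17, adjusted p = 0.0352), with 499, 707 and 459.7 against 265, 294 and 246.

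The metallothionein genes Mt1, Mt2A, Mt3 and Mt4 follow each other in the gene order of the GRCr8 assembly. Mt1 and Mt2A are the forms used by most tissues, and Mt3 is best known from brain. The promoter windows of Mt1, Mt2A and Mt3 are printed because these neighbours gave unlike signals. Each runs 5′ to 3′ on the minus strand, with 250 bases before and 50 after the start site, from RefSeq on GRCr8. It lies at chr19:10832926-10833225 for Mt1, chr19:10838659-10838958 for Mt2A and chr19:10856031-10856330 for Mt3. Capitals mark the MRE cores TGCACNC and TGCGCNC on either strand.
Mt1: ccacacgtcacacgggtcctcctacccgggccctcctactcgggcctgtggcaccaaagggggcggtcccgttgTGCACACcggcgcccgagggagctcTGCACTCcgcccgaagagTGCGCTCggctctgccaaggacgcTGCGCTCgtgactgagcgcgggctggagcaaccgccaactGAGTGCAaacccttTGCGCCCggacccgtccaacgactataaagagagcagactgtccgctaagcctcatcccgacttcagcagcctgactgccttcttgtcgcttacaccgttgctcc
Mt2A: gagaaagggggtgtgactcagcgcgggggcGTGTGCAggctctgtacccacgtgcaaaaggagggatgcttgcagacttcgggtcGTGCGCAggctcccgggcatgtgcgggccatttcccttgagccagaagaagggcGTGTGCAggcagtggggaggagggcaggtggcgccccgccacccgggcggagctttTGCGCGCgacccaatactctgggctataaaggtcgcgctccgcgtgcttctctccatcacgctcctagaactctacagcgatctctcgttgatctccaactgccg
Mt3: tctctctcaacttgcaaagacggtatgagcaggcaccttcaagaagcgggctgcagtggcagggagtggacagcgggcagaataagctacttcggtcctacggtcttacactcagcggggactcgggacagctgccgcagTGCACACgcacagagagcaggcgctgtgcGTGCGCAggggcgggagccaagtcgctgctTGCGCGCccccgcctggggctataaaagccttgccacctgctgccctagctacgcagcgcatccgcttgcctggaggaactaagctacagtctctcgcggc
The window of Mt1 held 6 such cores, that of Mt2A 4 and that of Mt3 3. At least as many were found in 0.0388%, 0.439% and 1.68% of 33469 RefSeq promoter windows of the same length, and 24.2% held at least 1. The AhR core GCGTG, searched on both strands, occurred 4 times in the Mt2A window (2 of them overlapping an MRE core). It occurred 2 times in that of Mt3 (both overlapping) and not in that of Mt1. Of all windows 29.7% held it, 10.2% at least 2 times and 1.23% at least 4 times. It was also in windows of Nr3c1, Tsc22d3, Errfi1 and Fkbp5. The glucocorticoid half-site AGAACA was in none of the 14 windows of the 9 genes with an entry, where 20.7% of all windows held it. Zbtb16 had no entry. Only exact sequences in these short windows were searched, so sites farther away or of another sequence would be missed.

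Mt1 had a signal of 133, 141 and 181 in Ahr-KO SuHx lung, 131, 101 and 135 in WT SuHx lung and 58.1, 87.8 and 63.7 in normoxia lung. Every SuHx lung lay above every normoxia lung. Mt1 rose 2.17-fold in Ahr-KO SuHx (log2 fold change 1.12 ± 0.22, adjusted p = 0.0145) and 1.76-fold in WT SuHx lung (0.81 ± 0.22, adjusted p = 0.0430) against normoxia lung. The Ahr-KO call was lost in 3 of 18 alternative settings, among them without normoxia lung 0 (adjusted p = 0.0586) and without Ahr-KO lung 2 (adjusted p = 0.0502). In WT SuHx lung 10 of 18 settings ended the call, with adjusted p up to 0.139.

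Mt2A had 60.4, 91.2 and 183 in Ahr-KO SuHx lung, 86.1, 82.6 and 143 in WT SuHx lung and 23.9, 51.1 and 14.6 in normoxia lung, where these stood for 30, 60 and 19 reads. Again no SuHx lung overlapped a normoxia lung. The log2 rise was 1.90 ± 0.51 in both Ahr-KO SuHx (3.72-fold, adjusted p = 0.0461) and WT SuHx lung (3.73-fold, adjusted p = 0.0374). These calls were lost in 11 and in 8 of 18 alternative settings, with adjusted p up to 0.182 for Ahr-KO SuHx and 0.126 for WT SuHx lung. The Ahr-KO value was 1.06 when normoxia lung 2 and Ahr-KO lung 2, the libraries with high cardiac markers, were both left out (adjusted p = 0.182). Between Ahr-KO and WT SuHx lung, Mt2A differed by less than 0.01 on the log2 scale, but the interval ran from -1.14 to 1.13 (adjusted p = 0.999), and Mt1 gave 0.31 ± 0.22 (adjusted p = 0.557, interval -0.20 to 0.81). Neutrophil markers, 5 of 12 of them higher in Ahr-KO SuHx and 2 of 12 in WT SuHx lung, moved the same way, with sums of 9277 to 13936 in Ahr-KO SuHx, 9550.1 to 14372 in WT SuHx and 2480.2 to 5404 in normoxia lung, and none at 0 throughout a group. Of 9 erythroid markers 7 were higher in each SuHx group, and 1 was lower in WT SuHx lung. Their sums were 4272 to 7554 in Ahr-KO SuHx, 5096 to 8299 in WT SuHx and 1474 to 2142 in normoxia lung. Of 12 fibroblast markers 5 were higher in Ahr-KO SuHx and 4 in WT SuHx lung (133826 to 169759 in Ahr-KO SuHx, 114431 to 151477 in WT SuHx and 71813 to 90492 in normoxia lung). Of 14 smooth muscle and pericyte markers 6 were higher and 1 lower in each (50588 to 76590.4 in Ahr-KO SuHx, 50929 to 74344 in WT SuHx and 30215 to 40353 in normoxia lung). Of all rows, 5.95% were called higher and 3.8% lower in Ahr-KO SuHx, and 7.08% higher and 6.39% lower in WT SuHx against normoxia lung. The part of these markers in the metallothionein values was not tested.

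In WT SuHx against normoxia lung, Sgk1 was called whichever of the 9 lung libraries was left out, while Zbtb16, Errfi1, Mt1 and Mt2A lost their calls without some of them and kept their directions. Over all alternative settings the log2 fold change was 0.69 to 0.99 for Mt1, 1.5 to 2.37 for Mt2A, -0.85 to -0.44 for Errfi1 and -4.24 to -2.40 for Zbtb16. Some calls were lost at an unchanged fold when the library left out was of the Ahr-KO group, which enters only the shared estimate of the spread: Mt1 at 0.81 and Errfi1 at -0.70 without Ahr-KO lung 0 or 1, and Mt2A at 1.90 without Ahr-KO lung 1. Of the 10 genes, 5 were called without Ahr-KO lung 2, 3 without normoxia lung 1, WT SuHx lung 1 or Ahr-KO lung 0, 2 without normoxia lung 0, normoxia lung 2 or Ahr-KO lung 1, and 1 without WT SuHx lung 0 or 2. In Ahr-KO SuHx against normoxia lung, Mt2A lost its call without normoxia lung 0 or 2, WT SuHx lung 0 or 1, or Ahr-KO lung 1 or 2 (log2 fold change 1.47 to 1.96, adjusted p 0.0626 to 0.134).

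ECs gave the highest metallothionein signals. Mt1 had 1827, 2851 and 1671 in ECs, 29.5-fold above normoxia lung (log2 fold change 4.88 ± 0.25, adjusted p = 2.21e-05). Mt2A had 1440.3, 2273 and 1973 in ECs, 68.4-fold above normoxia lung (log2 fold change 6.10 ± 0.43, adjusted p = 5.81e-05). These were the largest EC changes among the 9 genes tested, and both calls held in 13 of 13 alternative settings. Mt1m, a further metallothionein row chosen after its values were seen, had 15.9, 33.7 and 38.7 in ECs and 4.77, 1.70 and 7.67 in normoxia lung. Related genes such as these may share reads. Mt3 did not follow: it was listed at 0 in 5 of the 12 libraries and held at most 6 reads in any (4.56 in Ahr-KO lung 2), and was too low to be tested in ECs. Its log2 fold changes among the lung groups, 0.44 ± 0.73 for Ahr-KO SuHx and -0.28 ± 0.73 for WT SuHx against normoxia lung, were not called (adjusted p = 0.745 and 0.819). Mt4 was listed at 0 in every library.

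The share of zinc and copper genes called in the lungs was near that of all rows (13.5% in WT SuHx and 9.75% in Ahr-KO SuHx against normoxia lung). Of 22 tested, with median log2 fold changes of 0.07 in WT SuHx and -0.05 in Ahr-KO SuHx against normoxia lung, 1 rose and 1 fell in WT SuHx against normoxia lung, the zinc importers Slc39a1 (1.33-fold higher) and Slc39a14 (1.28-fold lower). The Slc39a14 row also carries the name Ppp3cc, so the genes cannot be told apart in it. In Ahr-KO SuHx lung 1 fell, the zinc exporter Slc30a1, itself a target of MTF1 (1.24-fold lower, adjusted p = 0.0434). In ECs 5 were higher and 10 lower (median -0.14), against 26.1% and 30.1% of all rows. The importers Slc39a10, Slc39a6 and the copper importer Slc31a1 were higher. The importer Slc39a4 was lower (827 ± 188 in ECs and 3553 ± 1187 in normoxia lung, SD, n = 3 each). Mtf1, chosen after its values were seen, averaged 57.4 ± 22.0 in ECs and 205 ± 24.9 in normoxia lung (SD, n = 3 each, log2 fold change -1.90 ± 0.33, adjusted p = 0.00237).

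Among genes that surround the receptor, Nr3c2 fell in both SuHx groups and the glucocorticoid-regenerating enzyme gene Hsd11b1 was far lower in ECs. Against normoxia lung, 13.5% of all rows were called in WT SuHx, 9.75% in Ahr-KO SuHx and 56.2% in ECs. Of 20 genes of receptor machinery and hormone metabolism, which include Nr3c1 and Fkbp5, 1 rose and 4 fell in WT SuHx (median log2 fold change -0.13) and 1 fell in Ahr-KO SuHx against normoxia lung (median -0.23). The mineralocorticoid receptor gene Nr3c2, whose product also binds glucocorticoids, fell 2.56-fold in WT SuHx (log2 fold change -1.35 ± 0.25, adjusted p = 0.00928) and 1.99-fold in Ahr-KO SuHx lung (-0.99 ± 0.25, adjusted p = 0.0378). The coregulator genes Nrip1 (1.73-fold) and Ncoa2 (1.64-fold) fell in WT SuHx lung, and the co-chaperone gene Stip1 rose 1.40-fold. None of the 20 was called between Ahr-KO and WT SuHx lung (median 0.02), where the chaperone genes Hsp90ab1 and Hsp90b1 gave log2 fold changes of -0.59 ± 0.15 and -0.41 ± 0.13 (adjusted p = 0.153 and 0.206). In ECs 4 of 19 tested were higher and 4 lower (median 0.07), where 26.1% of all rows were higher and 30.1% lower. The coactivator gene Crebbp was 2.17-fold higher. Hsd11b1, which regenerates active glucocorticoid, averaged 292 ± 43.8 in ECs and 6317 ± 752 in normoxia lung (SD, n = 3 each), 21.6-fold lower. Hsd11b2, which inactivates it, was 6.98-fold lower, and H6pd, whose product feeds cofactor to Hsd11b1, was 2.29-fold lower.

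Other glucocorticoid-induced genes did not share one direction. Their counts stand beside 13.5% of all rows called in WT SuHx, 9.75% in Ahr-KO SuHx and 56.2% in ECs against normoxia lung (26.1% higher and 30.1% lower in ECs). In WT SuHx against normoxia lung none of 24 rose and 5 fell (median log2 fold change -0.07), with Fam107a 3.25-fold, Bcl6 1.69-fold, Crispld2 1.64-fold and Sult1a1 1.90-fold lower. In Ahr-KO SuHx against normoxia lung 2 rose, the transcription factor genes Cebpd (3.71-fold) and Cebpb (2.14-fold), and 3 fell, Bcl6, Mertk and Sult1a1 (median of the 24 -0.06). Fam107a was the only one of the 24 called between Ahr-KO and WT SuHx lung: it had 579.7, 376 and 579.7 in Ahr-KO SuHx lung, 224, 166 and 229 in WT SuHx lung and 574, 820 and 628 in normoxia lung, so that the Ahr-KO lungs overlapped the normoxia lungs and not the WT SuHx lungs (log2 fold change 1.29 ± 0.22 between the SuHx groups, adjusted p = 0.0384). In ECs 12 of the 24 were higher and 4 lower (median 0.36), with Cebpd 12.9-fold, Fam107a 5.87-fold and Cebpb 4.19-fold higher and Crispld2 4.42-fold lower.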

How the data were processed

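The deposited table gives a signal per gene row for 12 rat libraries, 3 in each of 4 groups. No source used here describes its unit. From the values, the deposited signal is an estimated read count divided by 1 factor per library, since 79.9% to 81.7% of the values above 0 in a library are whole reads within 0.05, and it is not scaled to gene length. Reads were assigned to rn6 and checked with FastQC, per the submitters' processing notes. For the aligner, counter, scaling and strand setting, the sources used here give nothing. RNA was isolated with Trizol and a column with DNase treatment, per the labels' protocols.

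Columns were matched to groups by name. They carry the numbers 0 to 2 while the sample titles carry 1 to 3, so a column is a replicate of its group without a title of its own. The labels do not say whether replicates are separate animals or cell isolations, so p-values measure the spread between these libraries, which may be technical. Rows whose mean signal in a fit reached 1 entered limma 3.58.1 (R 4.3.3, eBayes with trend) on log2(signal + 1), with 1 fit for the 9 lung libraries and 1 for ECs and normoxia lung. The pseudocount of 1 understates the change of low genes. Tests were two-sided and p-values were adjusted by the Benjamini-Hochberg method over all tested rows. In data simulated for WT SuHx against normoxia lung, 91.0% of 200 genes changed 4-fold were recovered, with 15 false calls, over 15233 rows. Recovery was 91.0% for Ahr-KO SuHx against normoxia lung, 88.5% for Ahr-KO against WT SuHx lung and 81.5% for ECs against normoxia lung. The changed genes had a mean signal of at least 10. Smaller changes were not simulated, so their recovery is not known. The 10 genes and the gene lists were chosen with earlier results of these data known. All 10 genes are named in every comparison. Up to 4 called genes with the smallest adjusted p were eligible to be named from each list, and genes named outside this rule, such as Per1, Ddit4, Mt1m, Mtf1 and Sult1a1 in Ahr-KO SuHx lung, were chosen after their values were seen. Alternatives were another pseudocount, other filters, quantile normalization, no trend, other sets of libraries, the column number as a block, and leaving out each library. Between normoxia and Ahr-KO SuHx lung the deviations of all 3 same-numbered pairs correlated above 0.1 (0.106, 0.182 and 0.229), so the numbers may pair these libraries. In no other comparison did all pairs pass 0.1. Rows that merge names number 1046, and 2538 rows were 0 in every library. Promoter sequences and gene order are from RefSeq on GRCr8, another build than that of the files. Its coordinates are given only to locate the printed promoter windows.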

Additional observations from a re-analysis of the deposited data

How the results depend on the processing

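Sgk1 kept both SuHx calls in 18 of 18 alternatives, and the 5 EC calls held in 13 of 13. In WT SuHx against normoxia lung, the 5 genes called were 2 without trend, 2 after quantile normalization, 2 with only these groups fitted, 3 without the libraries rich in cardiac or airway RNA, and 1 to 5 when each library was left out. In Ahr-KO SuHx against normoxia lung the 3 called were 1 without the cardiac and airway libraries and 1 to 4 when each library was left out. No gene of the 10 was called between Ahr-KO and WT SuHx lung whichever library was left out. In ECs the 5 called were 5 to 8 when each library was left out, with 8 without normoxia lung 1. Over all rows, leaving out each library gave 862 to 2380 calls in WT SuHx against normoxia lung (2052 with all), 721 to 1882 in Ahr-KO SuHx against normoxia lung (1485), 32 to 100 in Ahr-KO against WT SuHx lung (76) and 7239 to 8069 in ECs (8539). Without trend 47 rows, and with all 12 libraries in 1 fit 126, were called between Ahr-KO and WT SuHx lung.

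Whether the column numbers pair the libraries differed between comparisons. Deviations of same-numbered libraries correlated at -0.05 to 0.25 over 18 pairs. In 20 of 36 cases a library correlated best with its own number among the 3 libraries of another group. The cases are not independent, since deviations were centred within groups. This is a hint from the data and not from the design. With the number as a replicate block, the genes called among the 10 were 5 in WT SuHx, 3 in Ahr-KO SuHx and 5 in ECs against normoxia lung and 0 between the SuHx groups, the same counts as without it, and no call among the 10 genes changed. All rows called with the block were 3385 in WT SuHx and 2171 in Ahr-KO SuHx against normoxia lung, 82 between the SuHx groups and 8559 in ECs.

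Directions turned in uncalled results. Quantile normalization gave -0.40 for Nr3c1 and -0.24 for Tsc22d3 in ECs. When each library was left out, WT SuHx against normoxia lung ranged from -1.08 to 0.38 for Fkbp5, -0.71 to 0.15 for Mt3 and -0.43 to 0.59 for Tsc22d3. Ahr-KO SuHx against normoxia lung ranged from -0.37 to 0.038 for Errfi1, -0.84 to 0.62 for Fkbp5 and -0.48 to 0.54 for Tsc22d3. Ahr-KO against WT SuHx lung ranged from -0.28 to 0.050 for Dusp1, -0.43 to 0.36 for Mt2A, -0.13 to 0.14 for Nr3c1 and -0.30 to 0.20 for Tsc22d3. ECs ranged from -0.037 to 0.035 for Nr3c1 and -0.19 to 0.83 for Tsc22d3. The cause was not tested. For ECs, leaving out the cardiac-rich library is the same as leaving out normoxia lung 2 and fitting only the groups compared is the fit as reported, so neither was run again. Depth limits Mt3, with at most 6 reads in a library.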
